A study of Mus musculus with 4 samples.

Results

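Cadherins, protocadherins, catenins and the other genes of the desmosome were examined in mouse mammary terminal end buds with and without deletion of Ovol2, a zinc finger repressor of the epithelial-mesenchymal transition (EMT). The members were taken by symbol from the probe sets annotated to exactly 1 gene: the numbered cadherins (Cdh) and protocadherins (Pcdh), the desmocollins (Dsc) and desmogleins (Dsg), the plakophilins Pkp1 to Pkp4, and Dsp, Jup, Ctnna1, Ctnnb1, Ctnnd1 and Ctnnd2. This gave 51 of the 19938 genes on the array, each read from its probe set with the highest mean over the 4 arrays. The tested arrays were 2 Ovol2 knockout (KO) pools, of genotype Ovol2flox/-;K14-Cre, with 3 mice on each array. The arrays they were set against were 2 control pools with 2 mice on each, of genotype Ovol2flox/+ in the sample records, while the protocol also allows Ovol2flox/+;K14-Cre. All mice were female C57/BL6 and littermates shared cages, and every pool carried at least 1 floxed Ovol2 allele. The keratin 14 promoter that drives Cre is active in basal epithelium and skin, so the floxed allele is removed in those cells and their descendants, while the other Ovol2 allele of the KO mice is null in every cell. Age is given as 4.5 weeks in the sample records and as 24 to 25 days in the series text. End buds were isolated physically and their RNA was hybridised to single-colour whole-transcript arrays.

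Cadherins are calcium-dependent adhesion receptors that bind their like on the neighbouring cell. Classical cadherins hold beta-catenin and, through it, alpha-catenin and actin, which makes the adherens junction. Desmocollins and desmogleins instead bind plakoglobin, plakophilins and desmoplakin, which tie the desmosome to keratin filaments. In the mammary gland E-cadherin joins luminal cells and P-cadherin marks the basal, cap and myoepithelial layer. Loss of E-cadherin and gain of N-cadherin is the textbook cadherin switch of EMT.

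Array medians of the deposited linear signal lay between 252 and 272. Values below are log2(signal + 16) after quantile normalization, and differences are KO minus control with their SE from limma. The targeted gene Ovol2 had log2 values of 7.85 and 7.73 in KO arrays and 8.05 and 8.31 in control arrays. The difference of -0.39 ± 0.16 lay in the direction of the labels without passing (limma adjusted p = 0.17). Both KO values lay under the level of the filter on low signal, 7.97, and the mean over the 4 arrays was 7.98. Ovol2 was thus tested only through its control arrays. The filter level is a percentile of gene means and not a measured background. Without detection calls, the KO signal of Ovol2 could not be told from background. Where its probes lie relative to the deleted part is not known here, so these values do not settle the labels. Of the epithelial markers on the array, 14 of 14 luminal and 14 of 14 basal genes passed the filter on low signal. The threshold was an adjusted p of 0.05 over 11963 genes, which 10.7% of them passed, 6.29% higher and 4.45% lower in the KO. An unadjusted p under 0.05, quoted below beside counts, was reached by 25.5% of all tested genes. Nothing in the records says how separately the pools were prepared beyond calling them biological replicates. The p-values rest on the spread between these 4 pools, moderated by limma over all tested genes (2 residual and 7.58 prior degrees of freedom). The variance of each gene thus drew more on the trend over other genes than on its own values.

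Cdh11 (OB-cadherin), Cdh5 (VE-cadherin), Cdh13 (T-cadherin) and Pcdh7 rose in KO end buds, while Cdh2 (N-cadherin), Dsc2 and Dsp fell by smaller amounts. Cdh1 (E-cadherin) and the catenin genes did not pass. Of the 51 members, 30 passed the filter on low signal (a mean log2 value of 7.97 over the 4 arrays) and were tested. Cdh11, Cdh5, Cdh13 and Pcdh7 rose, between 1.41-fold and 2.55-fold. Cdh2, Dsc2 and Dsp fell, by between 1.18-fold and 1.24-fold. The other 23 tested members did not pass. All 7 members past the threshold lay above the filter level on all 4 arrays. The share called was 23.3% of the tested members, against 10.7% of all tested genes. Both KO arrays lay beyond both control arrays for 18 of the 30 tested members, against 56.3% of all tested genes. They were above for 6 members, against 26.4% of tested genes, and below for 12, against 29.9%. The median log2 difference of the tested members was -0.071, against -0.022 over all tested genes. The downward calls depended on single arrays and on the variance model: 0 were made without control replicate 2, 1 was made without KO replicate 2 (Cdh3), 5 without KO replicate 1, and 0 with no variance trend, a fit that called Cdh11 alone.

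**Figure D1:**
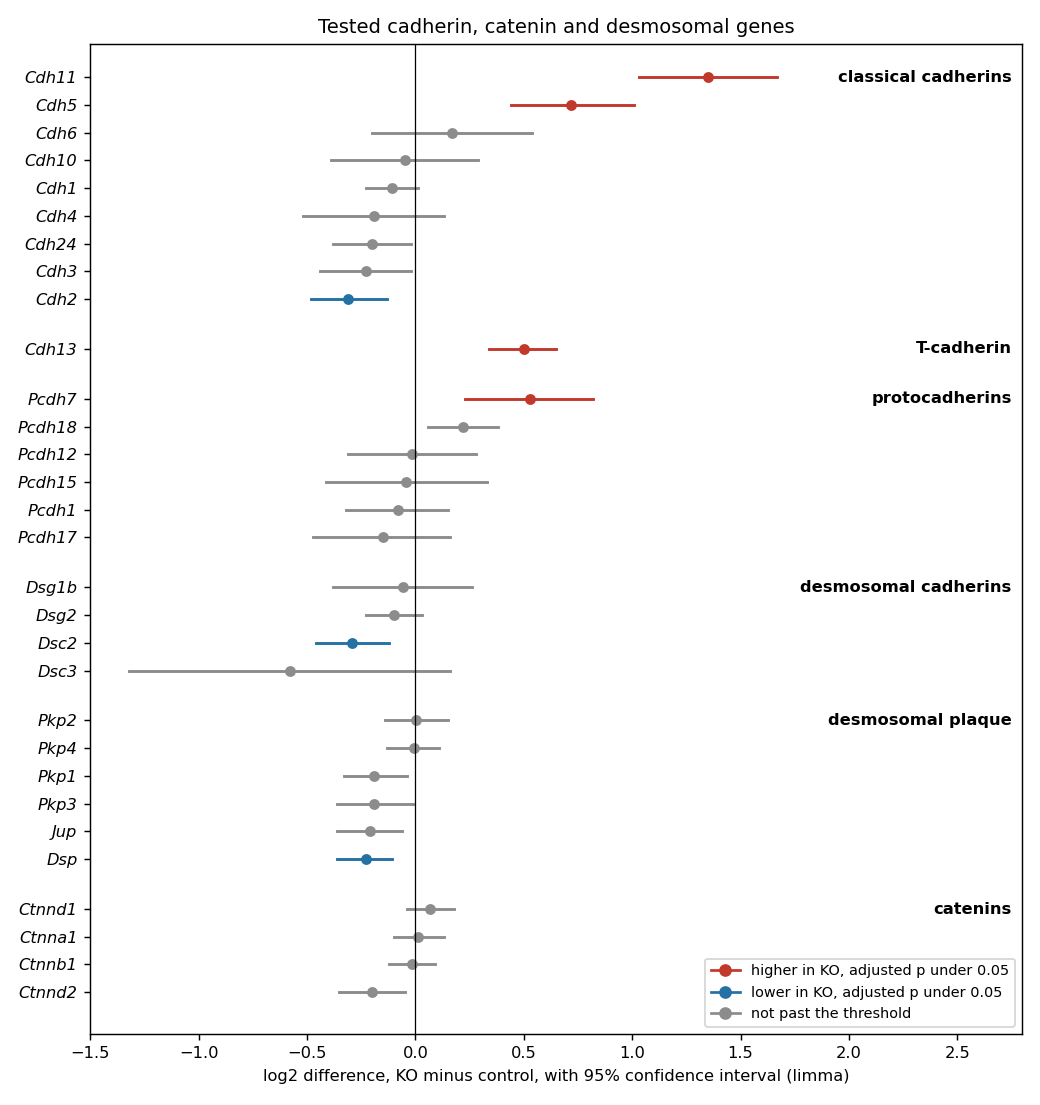
Log2 difference (KO minus control, horizontal axis) with its 95% confidence interval from limma for each of the 30 tested members, grouped by class. Red marks the 4 members that rose, blue the 3 that fell, and grey the 23 that did not pass; the changes that passed downward lie between -0.31 and -0.23, whereas Cdh11 lies at 1.35.

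Promoter sequence could be read for 28 members in the RefSeq promoter table (build GRCm38.p6, 34 windows of 300 bases, each with 250 bases before the annotated start). They were searched on both strands for the E-box CACCTG, a hexamer bound by Zeb and Snail repressors that reads as CAGGTG on the other strand. They were also searched for CCGTTA, the core of the OVOL motif, whose other strand reads as TAACGG. As the OVOL core matched in 0 of the 34 member windows, no overlap with an E-box could arise. Of the members past the threshold, the table gave a promoter for Dsp and Pcdh7, and these are shown because the pair moved in opposite directions and each holds the same hexamer. The capitals mark CAGGTG, which begins at base 254 of the Dsp window and at base 283 of the Pcdh7 window, in both cases after the annotated start.
Dsp, chr13:38151044-38151343, plus strand: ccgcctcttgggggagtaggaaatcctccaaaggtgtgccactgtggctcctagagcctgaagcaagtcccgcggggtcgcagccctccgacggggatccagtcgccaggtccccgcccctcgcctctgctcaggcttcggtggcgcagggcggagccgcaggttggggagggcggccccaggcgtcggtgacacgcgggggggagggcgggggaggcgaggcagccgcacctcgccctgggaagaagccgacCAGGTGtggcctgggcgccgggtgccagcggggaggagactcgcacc
Pcdh7, chr5:57717831-57718130, plus strand: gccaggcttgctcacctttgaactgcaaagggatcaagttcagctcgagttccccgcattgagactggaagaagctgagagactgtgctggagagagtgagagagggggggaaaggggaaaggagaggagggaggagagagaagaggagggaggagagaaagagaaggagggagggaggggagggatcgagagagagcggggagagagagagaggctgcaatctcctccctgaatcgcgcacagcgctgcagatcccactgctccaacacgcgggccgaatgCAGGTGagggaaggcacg
The E-box stood in 7 of the 34 member windows (20.6%), those of Cdh7, Dsp, Pcdh15, Pcdh7 and Pkp4, against 20.2% of all 32851 promoters in the table. The OVOL core stood in 0 of the 34 member windows, against 2.8% of all promoters. A match describes the letters of the window and not a bound site, and no match says nothing of the factor.

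The type II classical cadherins held the largest change. Cdh11 encodes OB-cadherin, a cadherin of osteoblasts, fibroblasts and other mesenchymal cells. Its log2 values were 10.30 and 10.65 in KO arrays, against 8.91 and 9.33 in control arrays (deposited signals 1283 and 1563 against 454 and 627). Both KO arrays lay above both control arrays, with a gap wider than the distance between the arrays of either group. Cdh11 rose 2.55-fold (log2 difference 1.35 ± 0.14, 95% CI 1.03 to 1.67, limma adjusted p = 0.000795). It passed under each of 15 alternative settings, with a highest adjusted p of 0.0428 and differences from 1.14 without control replicate 1 to 1.56 without control replicate 2. A further 3 probe sets list Cdh11 together with other gene symbols and were not used.

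Cdh5 encodes VE-cadherin, the adherens junction cadherin of endothelial cells. On the log2 scale it read 10.22 and 10.63 on KO arrays, against 9.58 and 9.81 in control arrays. The groups did not overlap, and Cdh5 rose 1.65-fold (log2 difference 0.72 ± 0.13, 95% CI 0.44 to 1.01, limma adjusted p = 0.00746). The call was lost with a robust variance prior (adjusted p = 0.0782) and with no variance trend (adjusted p = 0.0768), and the difference ranged from 0.52 to 0.93 when 1 array was left out. Other type II members did not pass: Cdh24 differed by -0.20 ± 0.08, Cdh6, the kidney cadherin, by 0.17 ± 0.16, and the brain cadherin Cdh10 by -0.047 ± 0.15. In the RefSeq gene table (GRCm38.p6), Cdh5 is the next protein-coding gene after Cdh11 on chromosome 8, and Cdh8 is the one before it. Cdh8 lay under the filter, at 6.69 and 6.72 in KO arrays and 6.80 and 6.91 in control arrays.

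Most fibroblast markers and some endothelial markers rose in the same arrays. Summed over 20 fibroblast and stromal matrix genes, the deposited signal was 35744 and 42447 in KO arrays, against 17984 and 19354 in control arrays, and 17 of the 20 rose, 0 fell and 3 did not pass (18 at an unadjusted p under 0.05, median log2 difference 1.07). Postn, a matricellular gene, rose by 1.48 ± 0.056, the proteoglycan gene Lum by 1.94 ± 0.092 and the receptor gene Pdgfra by 1.62 ± 0.11. Named after their values were seen, Fbln1 (-0.18) and Fbln2 (-0.08) lay lower on both KO arrays without passing, and Col5a1 (0.43) lay higher without passing. The control mean of Lama2, 7.55, lay under the filter level, so Lama2 was tested only through its KO arrays. Summed over 15 endothelial genes other than Cdh5, the signal was 8174 and 9523 in KO arrays, against 6119 and 7151 in control arrays. Of the 14 tested 4 rose, 0 fell and 10 did not pass (10 at an unadjusted p under 0.05, against 25.5% of all tested genes, median 0.42). The endomucin gene Emcn rose by 1.02 ± 0.14, the VEGF receptor gene Kdr by 0.88 ± 0.17 and the junction gene Esam by 0.61 ± 0.13. The control mean of Kdr, 7.69, lay under the filter level of 7.97, so Kdr was tested only through its KO arrays. Flt1 (-0.13), Eng (-0.02), Vwf (0.30) and Sox18 (0.25), named after their values were seen, overlapped between groups. Adipocyte markers summed to 11726 and 12331 in KO arrays, against 8742 and 9503 in control arrays, with 6 of 9 tested genes higher and 0 lower (7 at an unadjusted p under 0.05). The lipase gene Lpl rose by 0.98 ± 0.13, the fatty acid transporter gene Cd36 by 0.64 ± 0.095 and the lipid carrier gene Fabp4 by 0.58 ± 0.091. Named after their values were seen, Plin1 (-0.08) overlapped between groups, and Lipe (0.26) and Pnpla2 (0.12) did not pass. The adipocyte genes Adipoq (0.11), Lep (0.02), Plin4 (-0.06), Cidec (-0.02) and Retn (0.13) lay under the filter with no test. The lowest single signal in the fibroblast list was 143 (Lama2), 135 in the endothelial list (Sox17) and 98.0 in the adipocyte list (Lep), so no marker was listed at 0. The part of these cells in the cadherin values was not tested. In bulk tissue more cells of a type and more RNA per cell cannot be told apart.

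**Figure D2:**
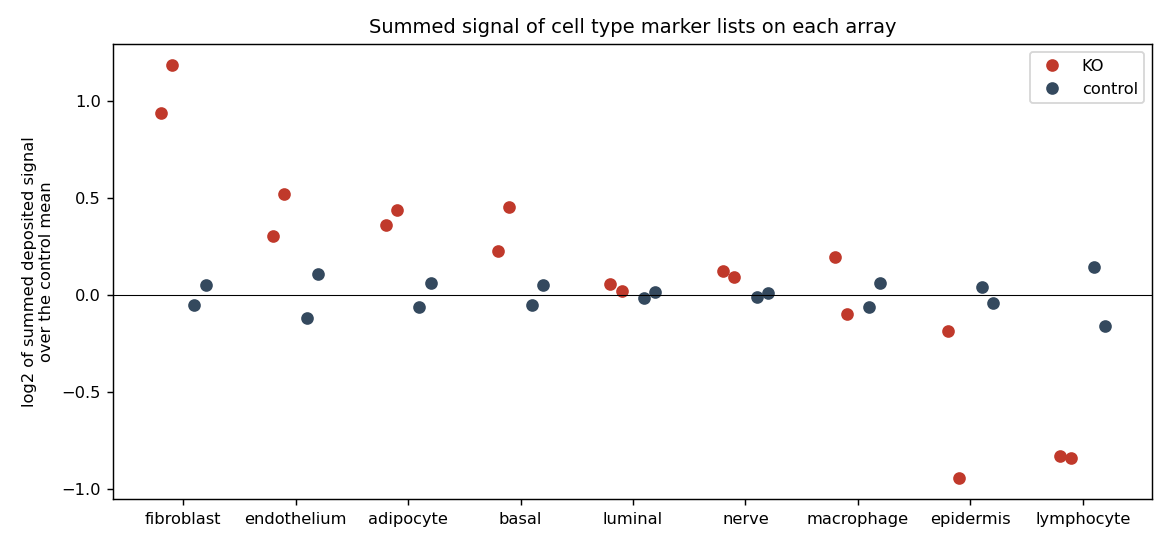
Summed deposited signal of each cell type marker list on each array, as log2 of its ratio to the mean of the 2 control arrays (vertical axis), KO arrays in red and control arrays in dark blue. Fibroblast, endothelial, adipocyte and basal sums lie higher on both KO arrays than on both control arrays, and nerve sums do so by less. Luminal sums lie close together, and lymphocyte sums lie lower on both KO arrays. The epidermis sum, which Sprr1a and Sprr1b dominate, is lowest on KO replicate 2.

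The type I classical cadherins, those of epithelium included, held no member that rose. Cdh1 encodes E-cadherin, the adherens junction cadherin of epithelia. The KO arrays read 12.53 and 12.43 (log2), against 12.55 and 12.63 in control arrays. The KO arrays lay just below the control arrays, and the difference of -0.11 ± 0.053 did not pass (95% CI -0.23 to 0.01, limma adjusted p = 0.224). It did not pass under any of 15 alternatives, with differences from -0.16 to -0.064. In the main setting a loss larger than 0.23 on the log2 scale thus lay outside the interval. That bound depends on the scaling. With median centring the difference was -0.15 (limma adjusted p = 0.408), and the median SE over all tested genes was 0.152, against 0.084 in the main setting. Luminal markers summed to 75990 and 74057 in KO arrays, against 72277 and 74025 in control arrays, with 1 of 14 higher and 0 lower (6 at an unadjusted p under 0.05, against 25.5% of all tested genes, median 0.038). Pgr, the progesterone receptor gene, was the one that rose, by 0.36 ± 0.083, while the claudin gene Cldn7 differed by -0.21 ± 0.060 and the oestrogen receptor gene Esr1 by 0.24 ± 0.075 without passing.

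Cdh2 encodes N-cadherin, a cadherin of neurons and mesenchyme. Its log2 values were 9.78 and 9.64 in KO arrays, against 10.06 and 9.98 in control arrays. The groups were apart, with the KO lower, and Cdh2 fell 1.24-fold (log2 difference -0.31 ± 0.079, 95% CI -0.48 to -0.13, limma adjusted p = 0.0369). The direction held throughout, but the call was lost in 8 of 15 alternatives, among them the values as deposited (adjusted p = 0.0743) and leaving out control replicate 1 (-0.27), control replicate 2 (-0.35) or KO replicate 2 (-0.24).

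Cdh3 encodes P-cadherin of the basal layer, and it lies next to Cdh1 on chromosome 8. On the log2 scale it read 10.00 and 10.28 on KO arrays, against 10.32 and 10.43 in control arrays. The KO arrays lay below the control arrays but were spread, and the difference of -0.23 ± 0.094 did not pass (95% CI -0.44 to -0.02, limma adjusted p = 0.15). Without KO replicate 1 it was -0.093, and without KO replicate 2 it was -0.38 and passed (adjusted p = 0.00049), and it also passed with the replicate number as a block (adjusted p = 0.00803). Cdh4, encoding R-cadherin of retina and brain, differed by -0.19 ± 0.15 and did not pass. Basal and myoepithelial markers summed to 44350 and 51854 in KO arrays, against 36537 and 39253 in control arrays. Of the 14, 8 rose and 2 fell, against 6.29% higher and 4.45% lower of all tested genes. The actin-binding gene Tagln rose by 0.62 ± 0.060, the Wnt receptor gene Lgr5 by 1.08 ± 0.15 and the calponin gene Cnn1 by 0.72 ± 0.10. Named after their values were seen, the others that rose were Acta2 (0.21), Myh11 (0.74), Mylk (0.74), Oxtr (0.94) and Vim (0.45). The 2 that fell were Trp63 (-0.36), the master regulator of basal identity, and the integrin gene Itgb4 (-0.26). Krt5 (-0.02), Krt17 (0.15) and the integrin gene Itga6 (0.02) overlapped between groups, and Krt14 (0.43) lay higher without passing. Contractile genes such as Acta2, Myh11 and Tagln, and Vim, are not particular to basal cells, and the source of their rise was not tested. The part of cell composition in the Cdh3 value was not tested.

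**Figure D3:**
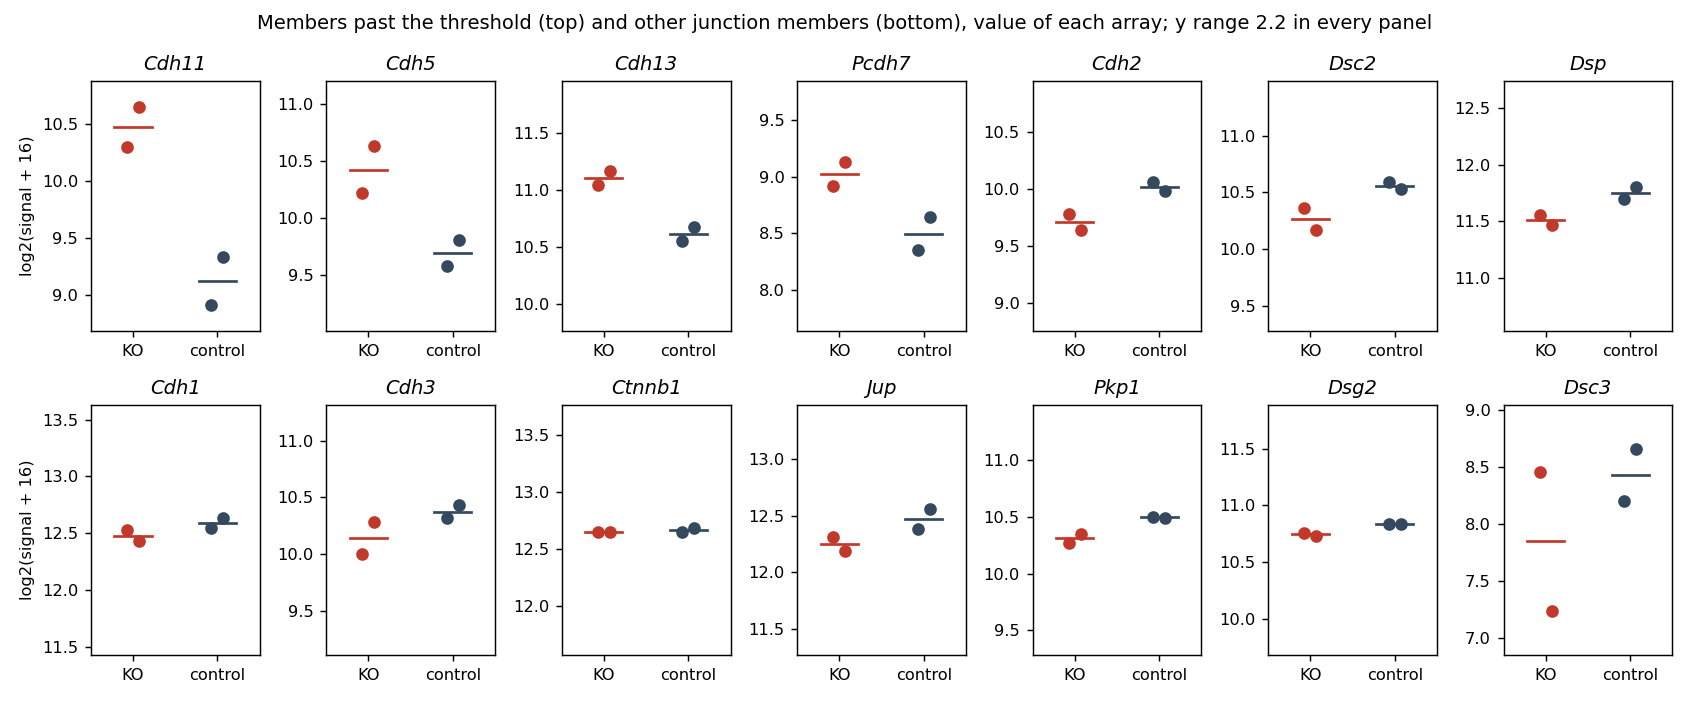
Log2(signal + 16) after quantile normalization of each array (points) and group means (lines), KO left of control, for the 7 members past the threshold (top row) and 7 further junction genes (bottom row), each panel spanning the same range. The groups are clearly apart for Cdh11, lie close for Cdh1, Ctnnb1 and Dsg2, and overlap for Dsc3, whose KO arrays are at 8.46 and 7.24.

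Cdh13 encodes T-cadherin, which lacks a cytoplasmic tail, is held by a lipid anchor and binds adiponectin, and is abundant in vessels, muscle and myoepithelium. The KO arrays read 11.05 and 11.17 (log2), against 10.55 and 10.68 in control arrays. The groups were well apart, and Cdh13 rose 1.41-fold (log2 difference 0.50 ± 0.068, 95% CI 0.34 to 0.65, limma adjusted p = 0.00247). It passed in 14 of 15 alternatives, the exception being the fit with no variance trend (adjusted p = 0.0609). The other non-classical cadherins lay under the filter, with differences from -0.19 to -0.08 and no test. They are the kidney gene Cdh16, the intestinal gene Cdh17, Cdh23 of the hair cell tip link, and Cdh26.

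Cdh19, a cadherin of Schwann cells and neural crest derivatives, was the member under the filter that differed most. Its log2 values were 7.72 and 7.61 in KO arrays, against 6.49 and 6.67 in control arrays. The KO arrays lay above the control arrays by a log2 difference of 1.08 with no test. Without detection calls, the signal of Cdh19 could not be told from background in either group. With no filter it was called higher, 1 of 5 members then called higher. Of 6 tested nerve and Schwann cell markers 1 rose, the adhesion gene Ncam1 (0.70 ± 0.10), and 0 fell, with Sox10 at -0.23 ± 0.072 and Gfra3 at 0.28 ± 0.14 not past the threshold. Their summed signal was 4869 and 4768 in KO arrays, against 4438 and 4513 in control arrays. The other 20 members under the filter had differences from -0.26 to 0.29. The largest of these were Pcdh19 at 0.29, Cdh18 at -0.26, the muscle cadherin Cdh15 at -0.21, Dsg1c at -0.20 and Cdh17 at -0.19.

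The protocadherins have no catenin-binding tail and act mainly in neural and vascular tissue. Of 11 on the array 6 were tested, 1 rose and 0 fell (2 at an unadjusted p under 0.05, against 25.5% of all tested genes). Pcdh7, whose promoter is given above, had log2 values of 8.92 and 9.13 in KO arrays, against 8.35 and 8.64 in control arrays. Both KO arrays were higher, and Pcdh7 rose 1.44-fold (log2 difference 0.53 ± 0.13, 95% CI 0.23 to 0.82, limma adjusted p = 0.0334). That call rested on single arrays: it was lost without control replicate 1 (0.38, adjusted p = 0.243) and without KO replicate 2 (0.42, adjusted p = 0.0631). It was also lost with no variance trend (adjusted p = 0.0916). Pcdh18 had 10.55 and 10.68 in KO arrays, against 10.33 and 10.46 in control arrays, a difference of 0.22 ± 0.072 that did not pass (limma adjusted p = 0.0814). The remaining tested protocadherins overlapped between groups. They are Pcdh1 of airway epithelium, the endothelial gene Pcdh12, Pcdh15 of the hair cell and Pcdh17, with differences from -0.15 to -0.015.

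The catenins that link classical cadherins to actin did not pass in either direction (0 of 4 in limma, 1 at an unadjusted p under 0.05, against 25.5% of all tested genes). Ctnnb1, encoding beta-catenin, which also acts in Wnt signalling, had 12.65 on both KO arrays, against 12.65 and 12.69 on control arrays. Ctnna1, the alpha-catenin gene, had 11.62 on both KO arrays, against 11.57 and 11.64 on control arrays. Their log2 differences were -0.014 (95% CI -0.12 to 0.09) and 0.011 (95% CI -0.10 to 0.13), and the sign of each turned with the scaling of the arrays, at 0.0075 for Ctnnb1 in the values as deposited and -0.041 for Ctnna1 with median centring. Ctnnd1, whose catenin holds cadherins at the membrane, differed by 0.069 ± 0.050 (95% CI -0.04 to 0.18). Its relative Ctnnd2, best known in neurons, had 10.01 and 10.04 in KO arrays, against 10.18 and 10.27 in control arrays. The groups were apart, and the difference of -0.20 ± 0.068 did not pass (limma adjusted p = 0.0943).

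Most desmosomal genes had small negative differences, and Dsc2 and Dsp fell. Of 13 desmosomal cadherin and plaque genes on the array 10 were tested, 0 rose and 2 fell (5 at an unadjusted p under 0.05, against 25.5% of all tested genes). The KO arrays lay below the control arrays for 7 of the 10, where 29.9% of all tested genes lay below. The differences were below 0 for 9 of 10, against 55.7% of all tested genes, with a median of -0.186. The count below 0 was 8 without quantile normalization and 10 when arrays were centred on their medians instead. These genes were measured in the same 4 pools, so their counts are not independent of each other.

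Dsp encodes desmoplakin, the plaque protein that holds keratin filaments, and its promoter is given above. On the log2 scale it read 11.56 and 11.47 on KO arrays, against 11.70 and 11.80 in control arrays. The groups did not overlap, and Dsp fell 1.18-fold (log2 difference -0.23 ± 0.057, 95% CI -0.36 to -0.11, limma adjusted p = 0.0302). The call was lost in 4 of 15 alternatives, namely with median centring (adjusted p = 0.0953), with no variance trend (adjusted p = 0.154), without control replicate 2 (-0.19) and without KO replicate 2 (-0.19).

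Jup encodes plakoglobin, a catenin shared by desmosomes and adherens junctions. The KO arrays read 12.31 and 12.19 (log2), against 12.38 and 12.56 in control arrays, so the KO arrays were the lower ones. The difference of -0.21 ± 0.067 did not pass (95% CI -0.36 to -0.06, limma adjusted p = 0.0726), but it did in 5 of 15 alternatives. These were the values as deposited (adjusted p = 0.00511), the replicate block (adjusted p = 0.000253), a block that pairs unlike numbers, the crossed replicate block (adjusted p = 0.0394), and leaving out control replicate 1 (-0.30, adjusted p = 0.0155) or KO replicate 1 (-0.27, adjusted p = 0.00138). Among the plakophilins, armadillo proteins of the plaque, Pkp1 had 10.27 and 10.35 in KO arrays, against 10.50 and 10.49 in control arrays. Its difference of -0.19 ± 0.063 did not pass (limma adjusted p = 0.0972), nor did that of Pkp3, at -0.19 ± 0.077. Both Pkp1 and Pkp3 lay lower in the KO arrays without overlap. Pkp2, found in simple epithelium and heart, differed by 0.0052 (95% CI -0.14 to 0.15) and Pkp4, found at adherens junctions, by -0.0072 (95% CI -0.13 to 0.11). The signs of Pkp2 and Pkp4 turned with scaling, to -0.028 with median centring for Pkp2 and to 0.0023 in the values as deposited for Pkp4.

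Dsc2 encodes desmocollin of simple and stratified epithelia. Its log2 values were 10.36 and 10.17 in KO arrays, against 10.59 and 10.53 in control arrays. The KO arrays lay below, and Dsc2 fell 1.23-fold (log2 difference -0.29 ± 0.076, 95% CI -0.46 to -0.12, limma adjusted p = 0.0376). This call was lost in 7 of 15 alternatives, among them median centring (adjusted p = 0.165), no filter (adjusted p = 0.0584) and leaving out control replicate 1 (-0.27), control replicate 2 (-0.32) or KO replicate 2 (-0.20). Its partner Dsg2, the desmoglein of simple epithelium, had 10.76 and 10.73 in KO arrays, against 10.84 on both control arrays. The KO arrays were slightly lower, and the difference of -0.10 ± 0.056 did not pass (limma adjusted p = 0.309).

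Dsc3, the desmocollin of basal cells in stratified epithelium, rested on 1 array. On the log2 scale it read 8.46 and 7.24 on KO arrays, against 8.20 and 8.66 in control arrays. KO replicate 1 lay within the control range while KO replicate 2 was far below it, and the difference was -0.58 ± 0.33 (limma adjusted p = 0.313), 0.03 without KO replicate 2 (adjusted p = 0.957) and -1.19 without KO replicate 1 (adjusted p = 4.31e-06). Median centring also called Dsc3 lower (adjusted p = 0.00507), as did leaving the deposited values unscaled (adjusted p = 0.00742). The summed signal of the epidermis markers was 6577 and 3896 in KO arrays, against 7719 and 7269 in control arrays. Its low value on KO replicate 2 came from Sprr1a and Sprr1b, cornified envelope genes, which summed to 4934 and 2222 in KO arrays, against 5930 and 5622 in control arrays. The other 6 markers summed to 1643 and 1674 in KO arrays, against 1789 and 1648 in control arrays. Of 6 tested epidermis markers 0 rose and 0 fell in limma (2 at an unadjusted p under 0.05), with Sprr1a at -0.83 ± 0.27, Sprr1b at -0.63 ± 0.20 and Krt1 at -0.12 ± 0.088. The part of adherent skin or squamous cells in the Dsc3 value was not tested. The epidermal desmogleins Dsg1b (-0.059 ± 0.14), Dsg3 (6.20 and 6.38 in KO arrays, 6.40 and 6.55 in control arrays, under the filter), Dsg1c and Dsg4 were near or under the filter level in every array.

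The desmosomal cadherins sit side by side on chromosome 18. In the RefSeq gene table Cdh2 is followed by Dsc3 and Dsc2, and Dsg1b by Dsg4, Dsg3 and Dsg2. Within this stretch Cdh2 and Dsc2 fell, whereas Dsc3, which lies between them, did not pass. Of the 5 desmogleins, Dsg2 and Dsg1b did not pass and the other 3 lay under the filter. A probe set that lists Dsg1a, Dsg1b and Dsg1c together was not used, and these near-identical desmogleins may share signal.

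**Figure D4:**
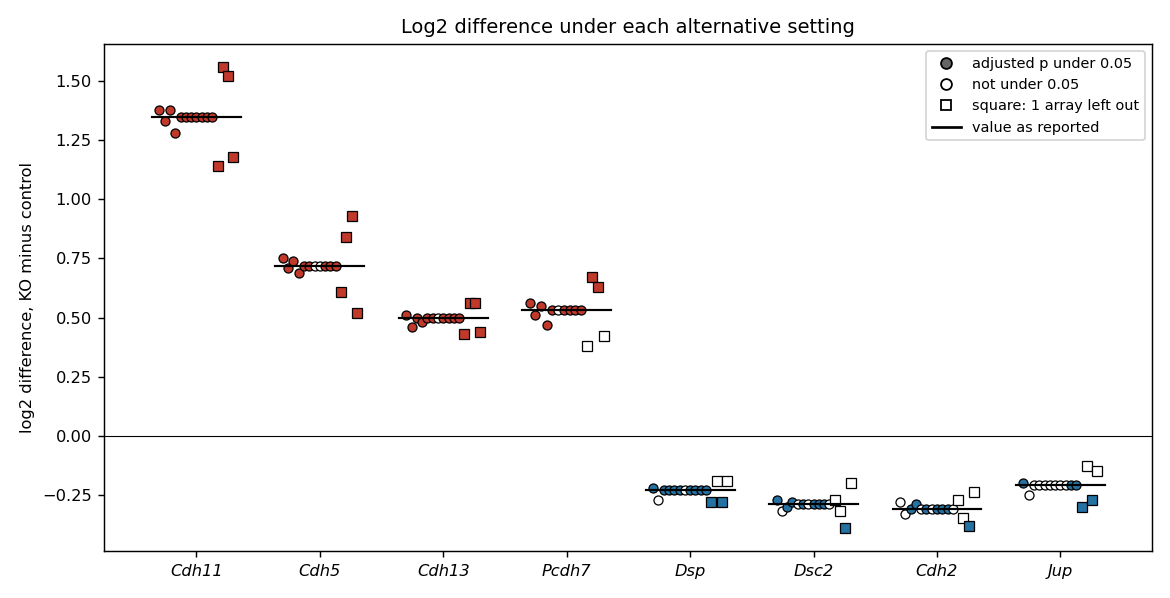
Log2 difference (KO minus control, vertical axis) of the 7 members past the threshold and of Jup under each alternative setting, filled where the adjusted p was under 0.05 and open where it was not; squares leave out 1 array and the line is the value as reported. The signs held for all 8 genes, Cdh11 was filled throughout, and Cdh2 and Dsc2 were open in 8 and 7 of 15 settings.

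Genes around these junctions gave few calls. Of 20 tested partners of the adherens junction (nectins, afadin, vinculin, alpha-actinins and others) 1 rose and 0 fell (3 at an unadjusted p under 0.05, against 25.5% of all tested genes), with a median log2 difference of 0.037. The one that rose was Lmo7, an afadin-binding scaffold, by 0.28 ± 0.066, while Ajuba, a LIM protein of the junction, differed by -0.34 ± 0.10 (limma adjusted p = 0.0506) and the vinculin gene Vcl by 0.17 ± 0.054 without passing. Of 11 tested genes associated with the desmosome (keratins, periplakin, envoplakin and others) 0 passed in limma (1 at an unadjusted p under 0.05). Krt14, the basal keratin whose promoter drives Cre, differed by 0.43 ± 0.15, the periplakin gene Ppl by -0.16 ± 0.074 and the luminal keratin Krt18 by 0.083 ± 0.045. Among the very large atypical cadherins 9 were tested, 1 rose and 1 fell. Fat4 had 8.71 and 8.90 in KO arrays, against 7.55 and 8.08 in control arrays, and rose by 0.99 ± 0.18 (limma adjusted p = 0.00962). Its ligand Dchs1 had 8.63 and 8.60 in KO arrays, against 7.96 and 8.33 in control arrays, a difference of 0.47 ± 0.15 that did not pass (limma adjusted p = 0.0772). Fat2, a planar polarity cadherin of squamous epithelium, fell by 0.38 ± 0.093 on the log2 scale (limma adjusted p = 0.0306). The control mean of Fat4, 7.82, lay under the filter level, so Fat4 was tested only through its KO arrays.

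Of 16 tested regulators of cadherin genes or proteins 5 rose and 1 fell, with a median of 0.004. Zeb1, a direct repressor of Cdh1, had 9.53 and 9.72 in KO arrays, against 7.31 and 7.92 in control arrays, and rose by 2.01 ± 0.18 (limma adjusted p = 0.000446). Both control values lay under the filter level, so Zeb1 was tested only through its KO arrays. Without detection calls, its control signal could not be told from background. Tcf4 and Klf4, transcription factors with reported effects on Cdh1, rose by 0.31 ± 0.061 and 0.62 ± 0.12. Named after their values were seen, the other 2 that rose were Zeb2 (0.70), a relative of Zeb1, and the epithelial factor gene Grhl1 (0.28), and the one that fell was Snai2 (-0.39), which like Zeb1 represses Cdh1. Blood and muscle markers are given for completeness. Of 4 tested lymphocyte markers 0 rose and 2 fell, the B-cell receptor gene Cd79b (difference -1.91 ± 0.22) and the homing receptor gene Ccr7 (-0.84 ± 0.12), while Ptprc differed by -0.37 ± 0.15. Both KO values of Cd79b lay under the filter level (mean 7.43), so it was tested only through its control arrays. Their list summed to 1549 and 1540 in KO arrays, against 3045 and 2466 in control arrays. Of 9 tested macrophage markers 2 rose (Cd14 by 0.34 ± 0.064 and H2-Ab1 by 0.47 ± 0.13) and 1 fell (Lyz2, -0.96 ± 0.24). Lyz2 had 9.86 and 8.87 in KO arrays, against 10.26 and 10.40 in control arrays, so KO replicate 2 lay furthest below. Named after their values were seen, the other tested markers, Cd68, Csf1r, Itgam, C1qa, C1qb and C1qc, overlapped between groups. The macrophage list summed to 7515 and 6129 in KO arrays, against 6287 and 6846 in control arrays. Of 3 tested skeletal muscle markers 0 passed in limma and 0 had an unadjusted p under 0.05, with Tnnt3 at -0.16 ± 0.15, Ckm at -0.086 ± 0.20 and Acta1 at 0.0098 ± 0.12. Their summed signal was 2675 and 2339 in KO arrays, against 2755 and 2226 in control arrays.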

How the data were processed

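The authors' deposited table holds a signal intensity for each probe set on each array, and its values show the scale to be linear. Affymetrix Expression Console 1.1.1 and PLIER 2.0 are named in the submitters' processing notes. For their settings, the normalization and the genome build no source used here gives a value, and the authors' detection calls and scanner files were not used. Of 35556 probe sets, 21789 carried 1 gene symbol, 1621 several and 12146 none in the platform annotation; the symbols of all 51 members were the same in the RefSeq gene table. Of 54 symbols sought, Dsc1, Dsg1a and Pcdh11 were not found as single-gene probe sets.

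Array medians of log2(signal + 16) differed by 0.1006, above the limit of 0.1, so arrays were quantile normalized. Genes under the 40th percentile of mean log2 value were left out of the tests. KO and control arrays were compared with limma 3.58.1 in R 4.3.3 (lmFit, eBayes with trend, two-sided, Benjamini-Hochberg over 11963 genes, 2 residual and 7.58 prior degrees of freedom). With 2 arrays a group, an exact permutation test cannot give a two-sided p under 0.333 and was not used. The number of arrays limits precision: the median SE was 0.084. The fit was also run on simulated arrays with normal error of the same size for every probe set. The real arrays were fitted with a variance that changes with signal level, so that run does not vouch for the calls here. Levels are not compared between genes.

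Named were all members past the threshold, a fixed set of 18 junction genes, the 6 untested members with the largest differences, and up to 3 genes with the smallest p in each other list. Members and lists were chosen with earlier results of these data known. Lists are described by counts and medians, with no set test. Keratins stand in more than 1 list. Alternatives varied scaling, offset (1 or 64), filter (none or the 60th percentile), variance prior, probe set choice, replicate block and the arrays left out.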

Additional observations from a re-analysis of the deposited data

How the results depend on the processing

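Cdh11 passed under all 15 alternatives, and the signs of the 7 called members held in every alternative that tested them. Members called higher numbered 4 in the main setting and 1 with no variance trend. Members called lower numbered 3 in the main setting, 1 with median centring (Dsc3, with Cdh2, Dsc2 and Dsp all lost), 1 with no filter (Dsp), 0 with no variance trend and 7 with the replicate block. The values as deposited called 4 higher and 4 lower, with Dsc3 and Jup in and Cdh2 out. Leaving out 1 array gave 3 to 5 members higher and 0 to 5 lower, with 0 lower without control replicate 2. Over all genes, 753 higher and 532 lower became 480 and 273 with median centring, 143 and 45 with no variance trend and 1170 and 1076 with the replicate block; leaving out 1 array gave 320 to 1168 higher and 156 to 1179 lower, with the lowest counts without control replicate 1 and the highest without KO replicate 1. Replicate numbers are a number only: deviations of same-numbered arrays correlated at r = -0.196, and a crossed replicate block, added after seeing the data, called 4 members higher and 2 lower (715 and 488 over all genes). The values as deposited, median centring, the block and leaving out a KO array gave fits with an infinite prior, in which the trend alone sets the variance, and this makes their small p-values less secure.

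Signs turned for members that did not pass: Ctnna1 (-0.041 with median centring, -0.026 to 0.048 leaving out 1 array), Ctnnb1 (0.0075 as deposited, -0.033 to 0.0054 leaving out 1 array), Dsc3 (-1.19 to 0.03 leaving out 1 array, 0.03 without KO replicate 2), Pkp2 (-0.028 with median centring, -0.064 to 0.074 leaving out 1 array) and Pkp4 (0.0023 as deposited, -0.040 to 0.026 leaving out 1 array, with 0.019 without control replicate 2). The causes were not tested. Without detection calls, dim members such as Cdh19 and Dsg3 could not be told from background.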

Other observations

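The beta-cluster protocadherins, intronless neighbouring genes best known for neuronal identity, are not among the members but were on the array. All 22 with a single-gene probe set lay under the filter and none was tested. Their log2 differences ranged from -0.02 to 0.69 with a median of 0.319, and 21 of 22 were above 0. Both KO arrays lay above both control arrays for 17 of 22, against 10.6% of the 7975 genes under the filter. Their summed deposited signal was 2472 and 2730 in KO arrays, against 1995 and 2021 in control arrays. The genes are similar in sequence, so their probe sets may share signal and do not count as independent.

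Of the members, 4 had a second single-gene probe set. As deposited, the second one differed by -0.18 for Cdh18, -0.14 for Cdh24, -0.59 for Pcdh15 and 0.34 for Pcdh9. For Pcdh15 the probe set used differed by -0.044 after quantile normalization, so its 2 probe sets differ in size, on unlike scalings. The second one was dim as deposited, at 6.20 and 6.42 in KO arrays and 7.07 and 6.73 in control arrays. Those values lie under the filter level of 7.97.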
